A study of Homo sapiens with 16 samples.

Results

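Ciliary transport and axonemal genes were followed in 8 lung cancer cell lines, each grown flat on plastic (2D) and in a basement membrane gel (3D). The set held 50 genes in 6 classes: 11 genes of intraflagellar transport complex B (IFT-B), 6 of complex A (IFT-A), 5 of the transport motors, 9 of the BBSome and its assembly, 10 of the transition zone and 9 of the axoneme. A gene's values came from the probe sets annotated to it alone, under its current or a former symbol. The array held such probe sets for 49 of the 50 genes, against 19775 genes in all. TTC21B, an IFT-A subunit, lay only on a probe set shared with another gene and has no value here. The 49 genes had 112 probe sets, of which 91 could be tested, and 21 were dim, as defined with the units. The inner dynein arm gene DNALI1 had only dim probe sets, at mean differences of -0.11 and 0.09, so 48 genes were tested.

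The established human lung cancer lines A427, A549, H1437, H1703, H23, H358, H460 and H661 were used. Tissue culture plastic was the 2D support. In 3D they grew on a thin layer of Matrigel, a basement membrane extract, and were covered with medium that held 2% Matrigel. Seeding density and medium were matched, and no drug was given in either culture. With 1 array for every line and culture, the series holds 16 arrays. Because the lines are carcinoma cultures read in bulk, fewer cells that express a gene and less of its RNA per cell cannot be told apart.

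The primary cilium is a single antenna on many cell types, built on a basal body and extended by intraflagellar transport. Trains of IFT-B and IFT-A carry cargo to the tip with a kinesin motor and return with a cytoplasmic dynein. The BBSome links membrane proteins to the trains. The transition zone at the base acts as a gate, and the axoneme is the microtubule core, which in the motile cilia of airway epithelium also bears dynein arms. Regulatory factor X (RFX) proteins and, for motile cilia, FOXJ1 are the best known transcription factors of ciliary genes, and cilia are usually taken down when cells enter mitosis.

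Promoters of the members were read first, since RFX proteins bind a motif called the X-box. RefSeq promoters on the build GRCh38.p14 were at hand for 45 of the 50 members, and the 250 bases before each start were searched on both strands. The core GTTGCC, which makes up one arm of an X-box, lay in 15 of the 45 member promoters (33.3%) and in 2756 of all 27305 promoters (10.1%). A full X-box pair, GTTNCC and GGNAAC separated by 0 to 3 bases, lay in 1 member promoter, that of TCTN3, and in 0.626% of all promoters. The pair's arms hold the core where N is G in GTTNCC or C in GGNAAC, so these searches overlap. Of the 8 genes that changed between cultures in the results that follow, CFAP96, TTC8 and MKS1 had the core. Their stretches up to the base before the start, and the TCTN3 stretch around its X-box, are shown 5′ to 3′ on the gene's strand with the core on either strand in capitals.
CFAP96, plus strand, chr4:185426171-185426253: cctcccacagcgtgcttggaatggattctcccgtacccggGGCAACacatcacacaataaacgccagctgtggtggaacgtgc
TTC8, plus strand, chr14:88824577-88824650: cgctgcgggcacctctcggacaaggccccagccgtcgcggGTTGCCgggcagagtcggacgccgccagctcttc
MKS1, minus strand, chr17:58219256-58219329: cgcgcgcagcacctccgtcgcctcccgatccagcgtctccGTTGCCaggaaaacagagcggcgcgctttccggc
TCTN3, minus strand, chr10:95694090-95694177: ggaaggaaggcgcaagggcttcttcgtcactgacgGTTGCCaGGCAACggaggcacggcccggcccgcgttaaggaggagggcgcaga
The core began 43 bases before the start in CFAP96, and 34 bases before it in TTC8 and in MKS1. The other member promoters with the core were those of BBS5, BBS10, CFAP36, CFAP97, CFAP298, DYNC2H1, DYNC2LI1, IFT27, IFT46, IFT74 and IFT122. Letters of the hypoxia response element were searched in the same windows: ACGTG lay in 10 member promoters (22.2%, against 18.7% of all) and GCGTG in 19 (42.2%, against 31.9%). CACGTG holds ACGTG on each strand. A match describes the letters in the window and says nothing of whether a factor was bound.

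The values are log2 ratios of a probe set on an array to that probe set's own reference, its median over the 16 arrays. A probe set whose median ratio lay under 1, as when a fixed minimum replaced its median, is called dim and was not tested. Levels of different genes therefore cannot be compared, and every comparison is of a gene with itself. A gene's value is the mean of its tested probe sets, and its difference is 3D minus 2D within each line, given as mean ± SD over the 8 lines (n = 8). Each line is 1 replicate, so the p-values measure the spread of that difference over lines and not the repeatability within a line. A gene was called changed where the adjusted p of limma's paired test, over all features tested, was under 0.05.

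Most ciliary genes did not pass the test, and 7 of the 8 that did belong to the transition zone or the axoneme. In 3D, the gene values of CFAP96, CFAP69, TTC8 and TMEM67 rose, and those of RPGRIP1L, CEP290, MKS1 and DNAL1 fell. The called genes are 8 of 48 members (16.7%), beside 6.09% of the 14113 genes tested. These are means over probe sets: DNAL1 had probe sets of opposite direction, each called. For CEP290 1 of 2 tested probe sets was called, and for TMEM67 none of 5. The 4 members that rose stand beside 1.97% of all genes called higher, and the 4 that fell beside 4.12% called lower. Among probe sets, 13 of 91 were called (14.3%, beside 7.11% of 34669), 7 of them higher (beside 2.67%) and 6 lower (beside 4.44%). The members were chosen with earlier results of these data known, so these shares do not test whether ciliary genes change more often. The median difference was 0.05 over the 48 members and -0.01 over all genes, and the median size was 0.14 in each. Values in 2D and 3D overlapped in all 48 genes and all 91 probe sets. They did so in nearly all features: 0.0283% of all genes and 0.075% of all probe sets had cultures that did not overlap. Leaving out 1 line changed the count of called members and the share of all genes called, given here in brackets. The count was 5 (6.94%) without A427, 5 (2.5%) without A549, 2 (1.44%) without H23 and 1 (0.879%) without H358. It was 1 (0.539%) without H460, 3 (2.08%) without H661, 7 (5.95%) without H1437 and 0 (0.12%) without H1703. Calls of single genes that were lost without a line, given below, stand beside these shares.

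**Figure D1:**
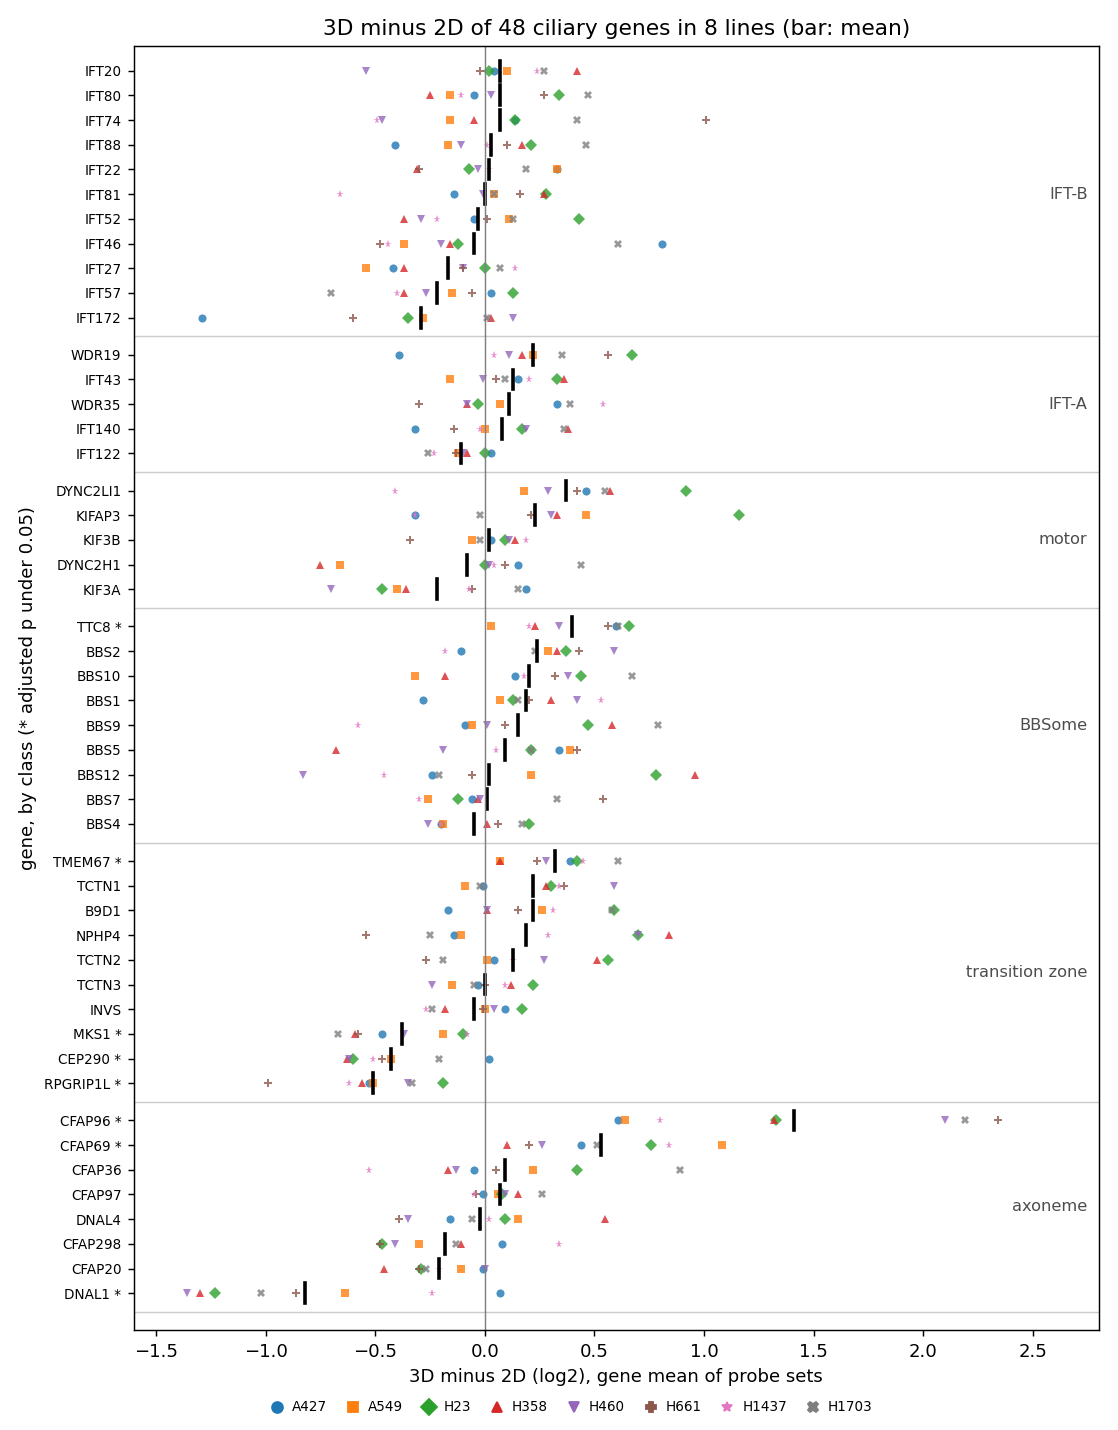
Difference 3D minus 2D (log2, horizontal axis) of the 48 tested ciliary genes, ordered by class; each marker is 1 line, the black bar is the mean over 8 lines, and an asterisk marks an adjusted p under 0.05. CFAP96 lies above 0 in all 8 lines with a mean of 1.41, DNAL1 lies lowest with a mean of -0.82, and no gene of IFT-B, IFT-A or the motors bears an asterisk.

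Among the axonemal genes, CFAP96 moved most of all members. It encodes a cilia- and flagella-associated protein and was formerly named C4orf47. In 2D its ratio ran from -0.67 in H1703 over a median of -0.27 to 0.00 in H358, and in 3D from -0.03 in A549 over a median of 1.26 to 2.11 in H661. The difference was 1.41 ± 0.71, a 2.66-fold rise, above 0 in 8 of 8 lines (limma adjusted p = 0.0187). The rise was 2.34 in H661, 2.19 in H1703 and 2.10 in H460, and was least in A427 (0.61), A549 (0.64) and H1437 (0.80). It was the largest rise of any member in H23, H358, H460, H661 and H1703. Both probe sets of the gene rose. Probe set 236915_at rose by 1.97 ± 0.83 (adjusted p = 0.00771), from a 2D range of -1.31 to 0.23 to a 3D range of -0.05 to 2.64. Probe set 237585_at rose by 0.86 ± 0.64 (adjusted p = 0.0351), from a narrow 2D range of -0.22 to 0.01 to a 3D range of -0.01 to 1.74. The first exceeded the second by 1.11 ± 0.41 in 8 of 8 lines, and they correlated at r = 0.89 over the 16 arrays, which share lines. With 1 line left out the gene's difference lay between 1.28 and 1.53. The gene lost its call only without H1703 (1.30, limma adjusted p = 0.0518), when 0.12% of all genes were called. The call of 236915_at held without any 1 line. RefSeq places UFSP2, a protease gene of another pathway, and CCDC110 across the same locus. UFSP2 differed by 0.06 ± 0.27 (adjusted p = 0.759), and CCDC110 was dim and not tested.

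DNAL1, an axonemal dynein light chain of the outer arm, gave probe sets of opposite direction. Probe set 223959_at ran from -0.52 over a median of 1.14 to 2.16 in 2D and from -1.14 over a median of -0.78 to 0.15 in 3D. It fell by 1.62 on the log2 scale (SD 0.69) in 8 of 8 lines (limma adjusted p = 0.00795). The fall was deepest in H460 at -2.33 and slight in A427 at -0.20. Probe set 223958_s_at, which has the same target record in the array's annotation, fell in 7 of 8 lines at -1.27 ± 0.87 (adjusted p = 0.0254), with A427 at 0.17. Probe set 226309_at, built on another record, rose by 0.43 ± 0.22 in 8 of 8 lines (adjusted p = 0.0250), from a 2D range of -1.10 to 0.08 to a 3D range of -0.86 to 0.52. The rising and the falling probe sets lay 2.05 ± 0.71 and 1.70 ± 0.86 apart, each in 8 of 8 lines. Over the 16 arrays the rising one correlated with them at r = -0.07 and -0.17, while the falling ones correlated with each other at r = 0.89. The gene's mean, -0.82 ± 0.52 (adjusted p = 0.0253), therefore averages probe sets of opposite sign. Its call was lost without H23, H358, H460, H661 or H1703, at values between -0.82 and -0.74, while the call of 223959_at held without any 1 line (-1.83 to -1.52).

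**Figure D2:**
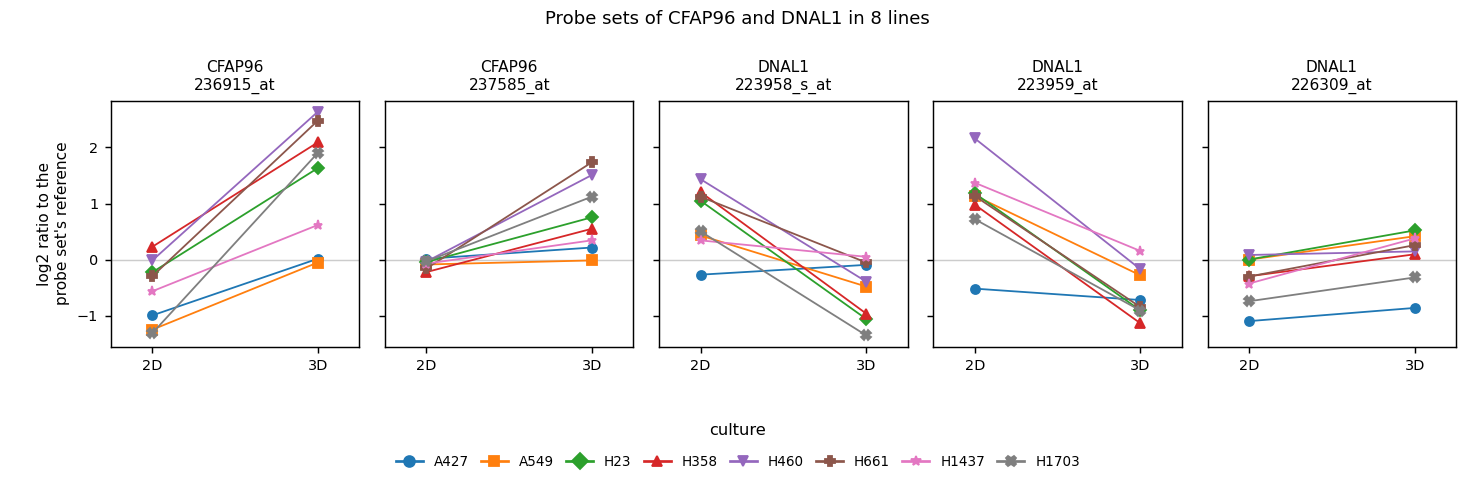
Log2 ratio to the probe set's reference (vertical axis) in 2D and 3D for the tested probe sets of CFAP96 and DNAL1; each line joins the arrays of 1 cell line. The CFAP96 panels rise in every line (means 1.97 and 0.86), whereas 223958_s_at and 223959_at of DNAL1 fall (means -1.27 and -1.62) and 226309_at rises (mean 0.43).

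CFAP69, a protein of the central apparatus of sperm flagella and motile cilia, rose in 8 of 8 lines. Its ratio lay between -0.38 and 0.19 in 2D with a median of -0.19, and between -0.18 and 1.28 in 3D with a median of 0.19. The difference was 0.53 ± 0.34, or 1.44-fold (limma adjusted p = 0.0315), with A549 highest at 1.08 and H358 lowest at 0.10. Its tested probe sets 219455_at and 1554919_s_at rose by 0.62 and 0.43 (adjusted p = 0.0351 and 0.0394), and its other probe set was dim. The gene's call was lost without A549, H23, H358, H460, H1437 or H1703, at values between 0.45 and 0.59. The other 5 axonemal genes were not called. Of these CFAP20, a microtubule inner protein, lay at -0.21 ± 0.16 and was below 0 in 8 of 8 lines (adjusted p = 0.112). CFAP298 lay at -0.18, DNAL4 at -0.02, CFAP97 at 0.07 and CFAP36 at 0.09.

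In the transition zone, 3 genes fell and 1 rose. RPGRIP1L, a scaffold at the base of the gate, ran from -0.42 over a median of 0.16 to 1.86 in 2D and from -1.37 over a median of -0.21 to 1.34 in 3D. A549 was highest and H661 lowest in 3D, and the values of the cultures overlapped widely. RPGRIP1L fell by 0.51 (SD 0.24), 1.42-fold, in 8 of 8 lines (limma adjusted p = 0.0219), from -0.19 in H23 to -0.99 in H661. It had 1 tested probe set, and a second was dim. CEP290, which tethers the microtubules of the gate to its membrane, fell by 0.43 (SD 0.23) in 7 of 8 lines (adjusted p = 0.0253), with A427 at 0.02. Of its 2 tested probe sets 1 was called. Probe set 221683_s_at ran from -0.35 over a median of 0.33 to 0.70 in 2D and from -1.39 over a median of -0.28 to 0.08 in 3D. It lay at -0.79 ± 0.49, below 0 in 8 of 8 lines (adjusted p = 0.0224), and 205250_s_at at -0.08 ± 0.24, below 0 in 4 of 8 (adjusted p = 0.640). They differed by 0.71 ± 0.62 in 8 of 8 lines. RLIG1, which overlaps CEP290 in RefSeq, differed by -0.08 ± 0.29 (adjusted p = 0.632). MKS1, a member of the gate's membrane-associated complex and a Meckel syndrome gene, fell by 0.38 (SD 0.23) in 8 of 8 lines (adjusted p = 0.0344). It ran from -0.80 to 0.65 in 2D and from -0.98 to 0.08 in 3D. Probe set 1555820_a_at was called at -0.45 ± 0.29 (adjusted p = 0.0342), and 218630_at lay at -0.31 ± 0.35, below 0 in 7 of 8 lines (adjusted p = 0.134). These calls were lost on leaving out H358, H460 or H1703 for RPGRIP1L (values from -0.54 to -0.50), H23, H358, H460, H661 or H1703 for CEP290 (-0.46 to -0.40), and any line but H1437 for MKS1 (-0.42 to -0.34).

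TMEM67, a membrane receptor of the gate also named meckelin, rose by 0.32 ± 0.19 in 8 of 8 lines (limma adjusted p = 0.0467). Its 2D values ran from -0.64 over a median of -0.17 to 0.84, and its 3D values from -0.29 over a median of 0.18 to 0.91. None of its 5 tested probe sets was called: their differences were 0.77 (adjusted p = 0.0521), 0.39, 0.29, 0.15 and -0.02. Leaving out any 1 line ended the gene's call, at values between 0.27 and 0.35. TCTN1, a tectonic protein of the same complex, was not called as a gene at 0.22 ± 0.24 (adjusted p = 0.161). Its probe set 218584_at lay at 0.47 ± 0.36, from -0.03 in A427 to 1.02 in H460 (adjusted p = 0.0499), and 1556864_at at -0.03 ± 0.18 (adjusted p = 0.851). The other transition zone genes were not called. B9D1 lay at 0.22, NPHP4 at 0.19, TCTN2 at 0.13, TCTN3 at 0.00 and INVS, which marks the inversin compartment just above the gate, at -0.05.

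**Figure D3:**
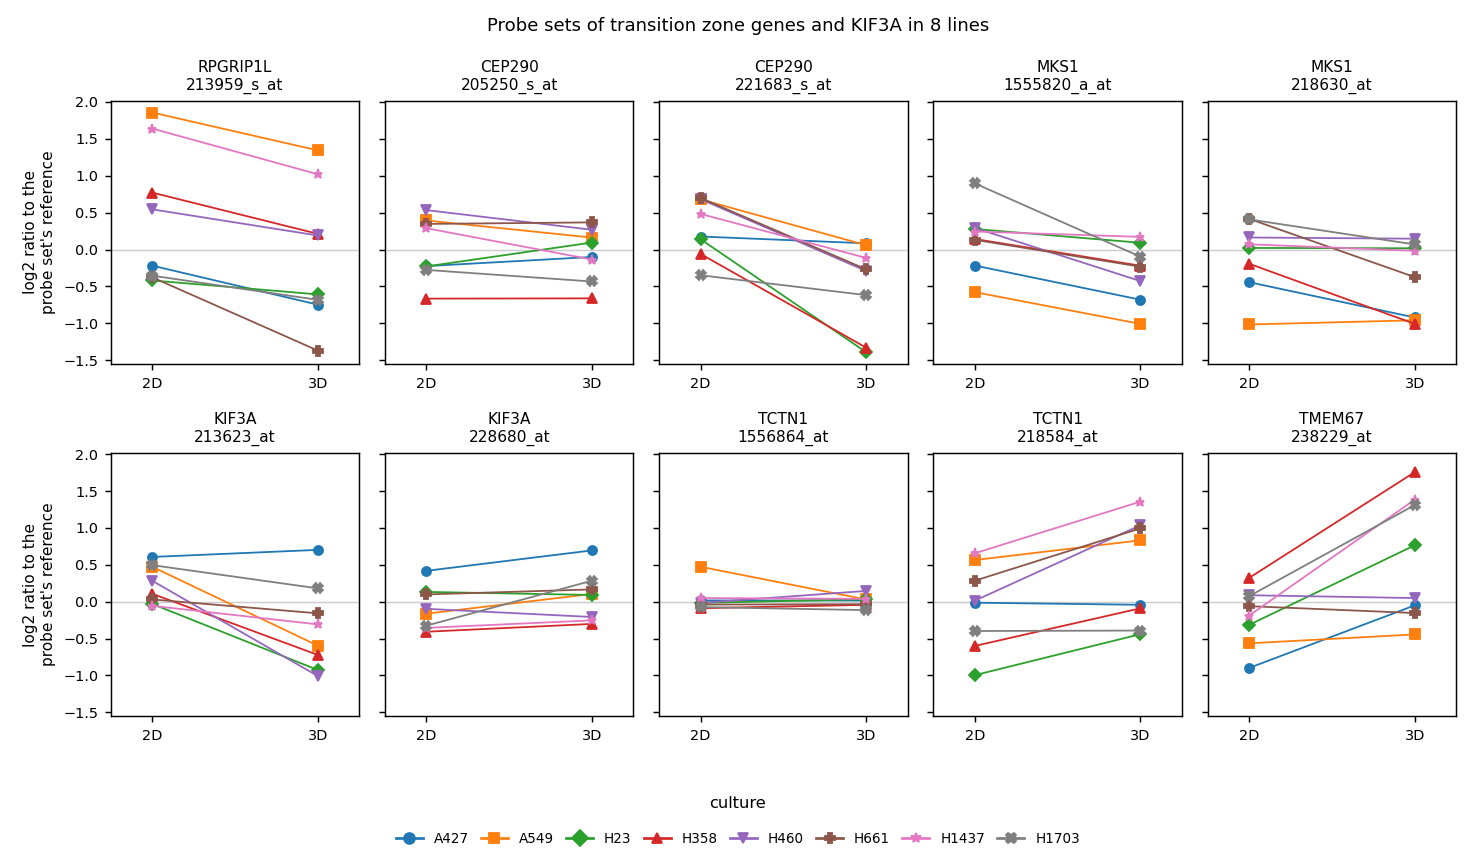
Log2 ratio to the probe set's reference (vertical axis) in 2D and 3D for probe sets of 5 transition zone genes and of the motor gene KIF3A; each line joins the arrays of 1 cell line. CEP290 221683_s_at falls (mean -0.79) while 205250_s_at falls in 4 lines and rises in 4 (mean -0.08). The KIF3A panels have means of -0.59 and 0.16, and TMEM67 238229_at rises in 6 of 8 lines (mean 0.77). For TMEM67 only the tested probe set with the largest rise is shown. Its other tested probe sets lay at 0.39, 0.29, 0.15 and -0.02, and no TMEM67 probe set was called.

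Of the BBSome genes, TTC8 was the one called. TTC8, also named BBS8, is a repeat-rich subunit of the coat. Its ratio ran from -0.71 over a median of -0.39 to 1.73 in 2D and from -0.10 over a median of 0.06 to 1.93 in 3D, with H1437 highest in each culture. It rose by 0.40 ± 0.24, or 1.32-fold, in 8 of 8 lines (limma adjusted p = 0.0373), from 0.03 in A549 to 0.66 in H23. Its call was lost without A427, H23, H358, H460, H661 or H1703, at values between 0.37 and 0.43. The differences of 8 of the 9 BBSome genes lay above 0, with a median of 0.15, but the other 8 genes were not called. BBS2 lay at 0.24 ± 0.26 (adjusted p = 0.146), BBS10 at 0.20, BBS1 at 0.19, BBS9 at 0.15, BBS5 at 0.09, BBS12 at 0.02, BBS7 at 0.01 and BBS4 at -0.05 ± 0.18 (adjusted p = 0.714). BBS10 and BBS12 are chaperonin-like proteins that assemble the coat. BBS12 differed in sign between lines, from -0.83 in H460 to 0.96 in H358.

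No gene of either IFT complex or of the motors was called by limma, over 19 probe sets of IFT-B, 11 of IFT-A and 12 of the motors. An unadjusted p under 0.05 was found for 2 of these genes, IFT57 of IFT-B (-0.22, adjusted p = 0.173) and the dynein light intermediate chain DYNC2LI1. The 11 IFT-B genes ranged from -0.29 ± 0.47 for IFT172 (adjusted p = 0.246) to 0.07 ± 0.26 for IFT80 (adjusted p = 0.682), with a median of 0.00. IFT172, a large peripheral subunit of the train, lay at -1.29 in A427 and between -0.60 and 0.13 in the other lines. IFT20, IFT22, IFT74, IFT81, IFT88, IFT46 and IFT52 lay between -0.05 and 0.07, and IFT27 at -0.17. The 5 IFT-A genes ranged from -0.11 ± 0.10 for IFT122 (adjusted p = 0.292) to 0.22 ± 0.33 for WDR19 (adjusted p = 0.256), with a median of 0.11; IFT140, WDR35 and IFT43 lay between 0.08 and 0.13. Among the motors, DYNC2LI1 lay at 0.37 ± 0.39 and was above 0 in 7 of 8 lines (adjusted p = 0.101). Without H1437, its line below 0, it was called at 0.48 (adjusted p = 0.0325). The dynein heavy chain DYNC2H1 lay at -0.08, and the kinesin subunits KIF3B and KIFAP3 at 0.02 and 0.23. KIF3A, the other kinesin motor subunit, lay at -0.22 ± 0.31 (adjusted p = 0.234). Its probe set 213623_at was the 1 motor probe set called. It ran from -0.06 over a median of 0.20 to 0.61 in 2D and from -1.01 over a median of -0.45 to 0.70 in 3D, with a difference of -0.59 ± 0.49 and below 0 in 7 of 8 lines (adjusted p = 0.0478), while 228680_at lay at 0.16 ± 0.23 (adjusted p = 0.287). The gap between them was 0.75 ± 0.44, in the same direction in 8 of 8 lines.

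Probe sets of 1 gene could give unlike differences. In the 31 genes with more than 1 tested probe set there were 59 pairs, whose correlation over the 16 arrays ran from -0.28 to 0.99 with a median of 0.67, and 22 pairs lay under 0.5. The difference 3D minus 2D of each pair was compared by an exact two-sided sign-flip test over the 8 lines, in which 0.00781 is the smallest possible p. That smallest p was reached by pairs of DNAL1, CFAP96, KIF3A, CEP290, INVS and BBS9. No pair passed 0.05 after Benjamini-Hochberg adjustment over the 59 pairs, and the adjusted p of these pairs was 0.0658. These pairs already stood at the smallest p of the test, so a wider gap could not have lowered their adjusted p. The adjusted p therefore does not weigh the size of their gaps. The TCTN1 pair differed by 0.50 ± 0.33 (exact p = 0.0156, adjusted 0.115).

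The lines themselves differed widely. In 43 of the 48 genes the SD over lines in 2D was larger than the mean difference between cultures. The 5 exceptions were CFAP96 (SD 0.27), CFAP69 (SD 0.22), DNAL1 (SD 0.54), CEP290 (SD 0.40) and DYNC2LI1 (SD 0.22). The widest spreads in 2D were in IFT46 (SD 1.37, from A427 to H1437), KIFAP3 (SD 1.12), DYNC2H1 (SD 1.11, from A427 to H661) and WDR35 (SD 0.99). The correlation of a gene's 2D and 3D values over the 8 lines had a median of 0.86, from 0.26 for TCTN2 to 0.99 for TTC8. DNAL1 stood low in this respect, at 0.37. Neither measure is given here for all genes, so neither sets these members apart from the series.

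Means over a class lay near 0 in most lines. Over the 48 genes the mean difference was 0.04 ± 0.09 (SD, n = 8 lines), and all genes of the series had -0.01 ± 0.05. H23 and H1703 were highest, with means of 0.20 and 0.18 and with 34 and 31 of 48 genes above 0. Of all 14113 genes, 7650 lay above 0 in H23 and 6167 in H1703. The means of the 48 genes in the other lines lay between -0.03 and 0.03. H23 also had the deepest fall of 18S ribosomal RNA (-3.45, given below), and its part in these means was not tested. IFT-B genes had a mean of -0.05 ± 0.13, IFT-A genes 0.08 ± 0.10 and motors 0.06 ± 0.16. The BBSome mean was 0.14 ± 0.17, above 0 in 7 lines, with 0.35 in H23, 0.33 in H1703 and 0.28 in H661. The transition zone mean was -0.03 ± 0.12, from -0.21 in H661 to 0.21 in H23. The axoneme mean of 0.11 ± 0.09 was above 0 in 8 of 8 lines, but without CFAP96 it was -0.08 ± 0.14 and above 0 in 4.

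**Figure D4:**
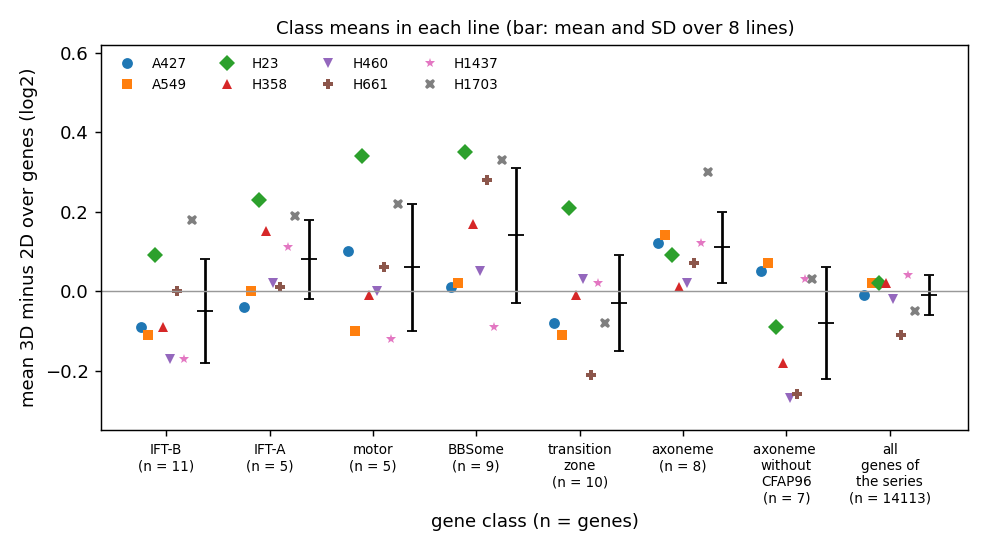
Mean difference 3D minus 2D over the genes of a class (log2, vertical axis) in each line (markers), with the mean and SD over 8 lines as a bar beside them. The axoneme mean of 0.11 becomes -0.08 without CFAP96. H23 stands highest in IFT-A (0.23), the motors (0.34), the BBSome (0.35) and the transition zone (0.21).

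The lists of other ciliary genes are given beside the 6.09% of all genes that were called. Of 13 further IFT genes, 1 rose, the IFT-B subunit IFT70B (0.33 ± 0.23, limma adjusted p = 0.0493), and none fell. Of 12 further trafficking genes of the BBSome and ciliary membrane, the recycling endosome GTPase RAB11A rose (0.63 ± 0.29, adjusted p = 0.0187) and RAB8A, a GTPase that brings vesicles to the cilium, fell (-0.43 ± 0.32, adjusted p = 0.0456). None of 20 further transition zone and basal body genes was called. Of 21 tested motile cilium genes, 2 rose: the inner arm dynein heavy chain DNAH7 (0.39 ± 0.28, adjusted p = 0.0493) and the dynein assembly factor DNAAF4 (0.37 ± 0.26, adjusted p = 0.0429). Of 11 Hedgehog pathway genes, GPR161, a ciliary receptor that restrains the pathway, fell (-0.36 ± 0.25, adjusted p = 0.0464). None of 9 cytoplasmic dynein genes was called.

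None of the 8 ciliary transcription factors tested was called by limma, and GMNC and RFX4 were dim and had no test. FOXJ1 lay at 0.07 ± 0.42, and the tested RFX genes at -0.27 for RFX1, -0.02 for RFX2, -0.16 for RFX3, -0.26 for RFX5 and -0.14 for RFX7. MYB and TP73, which act early in multiciliated cells, lay at -0.27 and -0.26. Markers of multiciliated airway cells were measurable for 7 of 11 genes, of which 0 were called. The list's mean ran from -0.19 to 0.36 over the lines in 2D and from -0.32 to 0.61 in 3D. The 7 were FOXJ1, RSPH1 (0.51 ± 0.79), TPPP3 (0.39 ± 1.43), DNAH5 (0.38 ± 0.59), CCDC78, CIMAP3 and CAPS. CCDC78 lay at 0.24 ± 0.63, CIMAP3 at 0.20 ± 0.28 and CAPS at -0.02 ± 0.16. TPPP3 was above 0 in 3 lines and below 0 in 5. SNTN, SPMIP6, DNAI1 and TEKT1 were dim. Epithelial markers (0 of 6 called) spread widely over lines, from -4.75 to 4.53 in 2D, and 0 of 9 mesenchymal markers were called. Leukocyte and endothelial markers could be tested for 3 of 8 and 2 of 6 genes, with 0 called.

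Several measures moved with the culture beside these genes. Of 12 proliferation genes 6 fell and 0 rose, with a median of -0.54; the list's mean ran from -0.25 to 0.54 over the lines in 2D and from -1.10 to 0.33 in 3D. Of 14 genes that control cilium assembly and disassembly, PLK1 (-0.83 ± 0.61, limma adjusted p = 0.0344), NEK2 (-0.62 ± 0.48, adjusted p = 0.0411) and STIL (-0.45 ± 0.29, adjusted p = 0.0331) fell; all act in mitosis or centriole duplication, and PLK1 is on the proliferation list too. Of 14 hypoxia response genes 8 rose and 0 fell, with a median of 0.89; the list's mean ran from -1.44 to 0.88 in 2D and from -0.49 to 1.64 in 3D. The part of these changes in the ciliary results was not tested. The array's probe sets for 18S ribosomal RNA were lower in 3D in 8 of 8 lines, at -1.15 ± 1.06 (exact two-sided sign-flip p = 0.00781), from -0.08 in H1437 to -3.45 in H23. The 3′ to 5′ balance of GAPDH differed by -0.03 ± 0.07 (exact p = 0.344) and that of ACTB by 0.09 ± 0.13 (exact p = 0.0859). With the 18S value of each array in the limma model, 0 of 48 members were called (7 at an unadjusted p under 0.05), and 0 of all 14113 genes (1368 unadjusted). The 8 called members kept their sign in that model: CFAP96 lay at 1.17, CFAP69 at 0.50, TTC8 at 0.31, TMEM67 at 0.31, RPGRIP1L at -0.64, CEP290 at -0.31, MKS1 at -0.45 and DNAL1 at -0.45.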

How the data were processed

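The array was Affymetrix U133 Plus 2.0, hybridised with biotin-labelled product of 200 ng total RNA, per the labels' protocols. The authors deposited 54675 probe sets as log2 ratios. Judged from these values, 63.5% of probe sets were divided by their own median, and 36.5% have a median ratio under 1 (dim, left out). Software and between-array scaling: both not given in the sources used here. Array medians lay between -0.28 and -0.07. GEO's platform annotation gave 1 symbol for 41097 probe sets, several for 1801 and none for 11777; those with several were not used. Models of probe sets and of gene means used R 4.3.3 and limma 3.58.1 (lmFit with cell line as block, eBayes with trend, Benjamini-Hochberg over all features), after a check on simulated data. The pairing rests on the cell line in the labels; replicate numbers only name samples. Arrays give no depth, and 8 lines limit the precision. Mean, SD and adjusted p are given for members called as a gene or probe set. The highest and lowest gene of each class have them too, and values of single lines are given for some members. Most other members are given by their mean or by a range of means. On the ciliary and marker lists, called genes, the transcription factors and the multiciliated markers are named. The members and lists were chosen with earlier results of these data known. Alternatives changed the filter, scaling, gene summary, probe sets, trend, block, 18S covariate and lines.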

Additional observations from a re-analysis of the deposited data

Results flagged for a closer look

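Of 35 sets of 8 line differences examined (genes, probe sets and class means), 1 had a line far from the rest. The axoneme mean in H1703 was 0.30, while the other 7 lines lay between 0.01 and 0.14 with a mean of 0.08. The gap to the nearest line was 0.55 of the range, above Dixon's limit of 0.526, and chance gives such a gap in about 1 in 20 sets. The H1703 mean held the CFAP96 difference of 2.19, and without that gene the H1703 mean was 0.03. CFAP96 lay about as high in H661 (2.34) and H460 (2.10), whose axoneme means were 0.07 and 0.02. CFAP36 lay at 0.89 in H1703 and between -0.53 and 0.42 in the other lines. What set the H1703 mean apart was not tested.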

How the results depend on the processing

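Counts of called members stayed within 1.5 times of 4 genes higher and 4 lower, and of 7 probe sets higher and 6 lower, with probe sets at the lowest ratio left out, with arrays centred on their median and without the variance trend, and the gene counts with the median or the highest-mean probe set of a gene. With dim probe sets kept, 1 gene was higher and 2 lower, and 2 probe sets higher and 3 lower; over the series 333 genes and 1091 probe sets were then called, against 860 and 2464. Without probe sets that may cross-hybridise (suffix s or x), 2 genes and 2 probe sets were lower, but 38 of 48 genes and 59 of 91 probe sets could then be tested, and CEP290 and RPGRIP1L were not among them. Over the series 5.73% of genes and 6.24% of probe sets were called without those probe sets. With the 18S covariate all 4 counts were 0 (limma, 7 genes and 11 probe sets at an unadjusted p under 0.05). Over the series 0 genes and 2 probe sets were then called. Without the cell line block all 4 counts were 0 as well (4 genes and 12 probe sets unadjusted), with the same signs. The series then had 1 gene and 8 probe sets called. With 1 line left out, member genes ranged from 0 to 3 higher and 0 to 4 lower. Member probe sets ranged from 1 to 6 higher and 1 to 6 lower. Over the series, genes ranged from 4 to 299 higher and from 13 to 681 lower. Probe sets of the series ranged from 237 to 937 higher and from 317 to 1654 lower. The axoneme mean without CFAP96, chosen after its value was seen, was -0.08. The sign turned for IFT80 (-0.08 with the covariate, -0.15 with the highest-mean probe set), WDR19 (-0.05 with the covariate), KIF3A (0.16 with the highest-mean probe set) and TMEM67 (-0.02 with the highest-mean probe set). The transition zone mean of -0.03 was 0.07 without the suffix s or x probe sets. The cause of the other changes was not tested.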
